A study of Mus musculus with 13 samples.

Results

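The genes described are those named Zfp with a number, the mouse symbol for zinc finger proteins. Members were selected on measured counts: a symbol of that pattern entered with at least 1300 reads summed over all 13 libraries, and Zfp36, which encodes a zinc finger protein of another type that destabilizes mRNA, was left out. The rule kept 246 of 339 symbols of the pattern, out of 23336 gene symbols in the tables. Of the others, 88 had fewer reads and 5 had none. The last members inside the threshold were Zfp599, Zfp772 and Zfp345, with 1345, 1331 and 1320 summed reads, and the first outside were Zfp97, Zfp938 and Zfp287, with 1261, 1255 and 1254. The rule used the sum over every library and no difference between groups. All 246 members also passed the low-count filter of the test.

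RNA-seq was done on mouse splenic B cells, purified by depleting CD43-bearing cells with beads. Control cells were Regnase-1+/+ hCD20TamCre and deficient cells Regnase-1 f/f hCD20TamCre, so both genotypes carried the same Cre transgene, which is named for human CD20, a B cell gene, and for tamoxifen, which activates such a Cre. There were 4 control and 3 deficient unstimulated libraries of naive cells, and 3 control and 3 deficient libraries of cells treated with anti-IgM F(ab')2, an antibody fragment that crosslinks the B cell receptor, for 4 h. The labels as read here give no age, no sex, no tamoxifen schedule and no time in culture for the unstimulated cells. They number the libraries without saying that each came from a separate animal, so p-values measure the spread between these libraries. Both sexes were found in every group, as given with the marker levels, so each group held more than 1 animal.

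Most Zfp genes encode C2H2 zinc finger proteins, in which tandem fingers each fold around a zinc ion and together read a DNA sequence. Many also carry a KRAB A box, a domain that recruits the corepressor TRIM28 and through it the histone methyltransferase SETDB1, and KRAB zinc finger proteins are best known for silencing retroelements and imprinted genes. KRAB genes lie in clusters made by repeated duplication, while other Zfp genes encode conserved transcription factors or proteins that act on RNA, ribosomes, ubiquitin or SUMO.

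Library totals ranged from 21407724 to 33244755 reads, and all levels are in CPM, reads scaled to a fixed library size, after TMM scaling. On this scale 3 reads corresponded to 0.0831 to 0.136 CPM. Zc3h12a, the gene for Regnase-1, averaged 125 ± 4.08 CPM (SD, n = 4) in control and 99.9 ± 10.8 (n = 3) in deficient unstimulated cells, and 153 ± 5.58 and 103 ± 9.99 CPM (n = 3 each) after stimulation. The deficient libraries lay below the control libraries in both states. Counts were per gene symbol, so reads of a deleted part could not be told from those of other exons. The cause of the remaining level was not tested. The unstimulated difference, -0.32 ± 0.07 on the log2 scale (SE), did not pass the test (adjusted p = 0.106, edgeR). The stimulated one, -0.58 ± 0.08, passed (adjusted p = 0.000784, edgeR). The 8 B cell markers were detected in every library, with summed levels of 5586 to 6612 CPM unstimulated and 2679 to 2975 CPM stimulated. Of these markers, 6 fell and 2 rose in control cells. Summed markers of T cells were 30.9 to 98.0 CPM, of NK cells 2.66 to 22.3 CPM and of plasma cells 85.1 to 142 CPM over all libraries. Myeloid, neutrophil and erythroid markers reached 488, 408 and 461 CPM, each highest in the unstimulated library of deficient animal 1, and Hba-a1 and Hba-a2 were listed at 0 in every library. Library numbers paired the states within a genotype, so libraries of one number are called an animal. Xist and Y-linked transcripts marked control animal 1 and deficient animals 2 and 3 as male and the other animals as female, so sex was not balanced between genotypes. The part of these other cells and of sex in the results was not tested beyond the fits without deficient animal 1 and with sex as a term. In bulk RNA, fewer cells of a type and less RNA per cell cannot be told apart.

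Promoter sequences are shown for members whose changes the results turn on. RefSeq windows of 300 bases (build GRCm38.p6, 250 bases before to 50 after a start site) were matched for 204 of the 246 members. They were searched on both strands for CACGTG (E-box), TGACGTCA (CRE), TGANTCA (AP-1), GCGNGGGCG (EGR), CCGGAAG (ETS) and ACTACAATT, which is part of the site known for Zfp143. Zfp783 and Zfp202, which rose most after stimulation, Zfp710 and Zfp53, which fell, and Zfp217 and Zfp827, which differed between genotypes, are given 5′ to 3′ on the strand of the gene, with any of these motifs in capitals.
Zfp783, chr6:47942925-47943224, plus strand: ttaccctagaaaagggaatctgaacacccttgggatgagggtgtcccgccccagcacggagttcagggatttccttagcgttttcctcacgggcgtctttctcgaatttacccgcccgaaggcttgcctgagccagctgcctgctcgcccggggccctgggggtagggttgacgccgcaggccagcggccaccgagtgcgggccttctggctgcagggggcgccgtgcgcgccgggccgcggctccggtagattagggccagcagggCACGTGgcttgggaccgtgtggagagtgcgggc
Zfp202, chr9:40192066-40192365, plus strand: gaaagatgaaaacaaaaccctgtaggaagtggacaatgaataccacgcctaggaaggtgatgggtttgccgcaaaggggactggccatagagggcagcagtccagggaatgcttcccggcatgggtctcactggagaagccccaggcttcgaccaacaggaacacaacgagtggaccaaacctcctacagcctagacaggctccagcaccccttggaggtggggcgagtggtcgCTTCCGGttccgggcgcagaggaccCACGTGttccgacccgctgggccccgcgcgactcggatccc
Zfp710, chr7:80024564-80024863, plus strand: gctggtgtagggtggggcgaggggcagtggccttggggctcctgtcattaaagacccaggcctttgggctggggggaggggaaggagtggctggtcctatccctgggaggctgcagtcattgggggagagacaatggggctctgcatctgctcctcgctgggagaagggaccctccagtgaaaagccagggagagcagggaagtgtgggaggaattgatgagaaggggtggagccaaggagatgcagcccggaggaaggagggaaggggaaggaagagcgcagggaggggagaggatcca
Zfp53, chr17:21488738-21489037, plus strand: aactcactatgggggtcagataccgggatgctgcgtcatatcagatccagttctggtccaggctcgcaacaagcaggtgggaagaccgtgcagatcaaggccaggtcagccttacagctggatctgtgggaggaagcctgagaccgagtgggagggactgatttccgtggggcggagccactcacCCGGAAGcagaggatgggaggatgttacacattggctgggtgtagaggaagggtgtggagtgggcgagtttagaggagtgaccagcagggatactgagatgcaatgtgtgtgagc
Zfp217, chr2:170142626-170142925, minus strand: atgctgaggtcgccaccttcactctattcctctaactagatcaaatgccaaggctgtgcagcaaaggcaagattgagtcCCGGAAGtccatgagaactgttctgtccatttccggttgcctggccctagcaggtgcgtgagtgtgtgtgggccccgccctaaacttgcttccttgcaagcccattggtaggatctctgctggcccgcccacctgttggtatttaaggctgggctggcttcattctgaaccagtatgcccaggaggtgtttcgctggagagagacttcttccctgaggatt
Zfp827, chr8:79028187-79028486, plus strand: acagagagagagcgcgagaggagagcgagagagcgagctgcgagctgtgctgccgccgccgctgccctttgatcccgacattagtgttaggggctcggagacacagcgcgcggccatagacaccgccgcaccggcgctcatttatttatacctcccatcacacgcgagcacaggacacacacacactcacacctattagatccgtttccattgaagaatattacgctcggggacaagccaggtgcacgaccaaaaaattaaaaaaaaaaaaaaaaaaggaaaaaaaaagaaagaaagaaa
Counting the RefSeq start base as 0, the E-box begins at base 17 in Zfp783 and at base 9 in Zfp202, and Zfp202 also holds an ETS motif on the complement. Zfp53 and Zfp217 hold an ETS motif on the strand shown, and Zfp710 and Zfp827 hold none of these letters. The RefSeq starts of Zfp783, Zfp53 and Zfp217 differ from the gene starts in GENCODE, whose coordinates are given for whole genes. For Zfp783 and Zfp53 the GENCODE start still lies within the window. The Zfp217 window, with its ETS motif, lies inside the gene: it ends at base 170142925, while the GENCODE start on the minus strand is at base 170148103.

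An E-box occurred in the windows of 8 of 38 members that rose in stimulated control cells (21.1%), of 8 of 108 that fell (7.41%) and of 3 of 58 that were not called (5.17%). Among all genes tested with a window it occurred in 1065 of 10546 (10.1%), in 14.4% of those that rose and in 8.39% of those that fell. The 8 risers with an E-box were Zfp202, Zfp207, Zfp295, Zfp296, Zfp507, Zfp708, Zfp783 and Zfp933, and the 26 bases around each occurrence are shown with the E-box in capitals. Zfp708 holds 2.
Zfp202, chr9:40192315-40192340, plus strand: gcagaggaccCACGTGttccgacccg
Zfp207, chr11:80383243-80383268, plus strand: aagcctgcgtCACGTGacccgcacag
Zfp295, chr16:97962652-97962677, minus strand: cagcgccacgCACGTGacgagcgctg
Zfp296, chr7:19577277-19577302, plus strand: gtaggaccagCACGTGtaaaaagttc
Zfp507, chr7:35802989-35803014, minus strand: gctcgccgctCACGTGatctgtctcg
Zfp708, chr13:67098099-67098124, minus strand: agcttgcctgCACGTGgggaggacgt
Zfp708, chr13:67098013-67098038, minus strand: aacccctacaCACGTGcagaaaaaga
Zfp783, chr6:47943182-47943207, plus strand: gccagcagggCACGTGgcttgggacc
Zfp933, chr4:147848513-147848538, minus strand: cggcctcagtCACGTGttacagcggt
The other motifs occurred in members at rates between 2.94% and 21.6%: the ETS motif in 44 of 204 windows, against 17.9% of all genes tested, and ACTACAATT in 6, against 0.730%. Median G and C content was 55.3% in members and 60.7% in all genes tested. A match in these windows is a description of letters and not a binding site.

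Levels of the members in resting cells spanned more than 2 orders of magnitude. Mean levels in control unstimulated cells ran from 2.44 to 597 CPM, with a median of 24.7 CPM. The 10 members with the most reads held 23.4% of all member reads. Per kilobase of exon, Zfp106, which encodes an RNA-binding protein, was highest at 57.2 ± 1.46 CPM per kb (SD, n = 4), followed by the KRAB gene Zfp869 at 53.0 ± 3.16. Zfp238, now named Zbtb18 and encoding a transcriptional repressor, reached 37.7 ± 1.05 CPM per kb, the KRAB gene Zfp52 reached 36.1 ± 3.28 and Zfp362 reached 35.1 ± 1.21. The annotated exons of Zfp869 total 1590 bases for a protein of 529 residues, against 3052 bases for Zfp362 and 10429 for Zfp106. The rank of Zfp869 per kilobase depends on that short annotation. Zfp106 and Zfp869 differed by more than either SD, while Zfp52 overlapped both Zfp238 and Zfp362 within their SDs. These levels are a description, since the counts chose the members.

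Together the members made up 1.05% to 1.09% of raw reads in control unstimulated libraries and 0.870% to 0.915% in control stimulated libraries. In deficient cells the ranges were 1.05% to 1.08% and 0.888% to 0.912%, so these raw shares did not overlap between states in either genotype. After TMM scaling the sums over all members were 9921 to 10839 CPM unstimulated and 9411 to 9817 CPM stimulated in control cells. In deficient cells these sums overlapped, at 9307 to 10483 CPM and 9061 to 9650 CPM. Members with a KRAB A box held 0.320% to 0.347% of raw reads in control unstimulated and 0.239% to 0.257% in control stimulated libraries. After TMM scaling the summed level of these KRAB members was 3071 to 3458 CPM and 2581 to 2764 CPM in these groups. In deficient cells it was 2943 to 3333 CPM and 2482 to 2706 CPM, without overlap between states in either genotype. For members without the box the separation also depended on the scaling. Their share of raw reads was 0.726% to 0.739% in control unstimulated and 0.629% to 0.654% in control stimulated libraries, while their TMM-scaled sums overlapped, at 6798 to 7362 CPM and 6793 to 7024 CPM.

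In control cells, stimulation through the B cell receptor was followed by lower transcript levels of most Zfp genes. At an adjusted p of 0.05 in edgeR's quasi-likelihood fit, 133 of 246 members fell (54.1%) and 45 rose (18.3%). Among all 13574 genes tested, 31.8% fell and 28.5% rose. The median log2 change of the members was -0.34, against -0.13 over all genes. With DESeq2's size factors in edgeR the median of all genes was -0.06 and that of the members -0.27, with 123 lower and 56 higher. By more than 2-fold, 6 members rose, where 10.1% of all genes did, and 29 fell, where 12.4% of all genes did.

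In deficient cells 117 members fell (47.6%) and 45 rose (18.3%), where 29.6% of all genes fell and 28.3% rose. The median log2 change was -0.27 against -0.11 over all genes. Changes of more than 2-fold were found in 5 members that rose and 26 that fell, where 9.78% and 11.7% of all genes did.

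The steepest fall belonged to Zfp831 (chr2:174643534-174710832, plus strand), a gene of few fingers and no KRAB box. Its levels were 123, 111, 110.2 and 106 CPM without and 12.6, 12.1 and 14.7 CPM with stimulation in the control libraries, in the order of their numbers. They were 85.4, 109.9 and 131 CPM in deficient unstimulated and 7.48, 11.2 and 9.58 CPM in deficient stimulated libraries. Every stimulated library lay far below every unstimulated one in both genotypes. The log2 change was -3.10 ± 0.16 (SE; adjusted p = 2.73e-09, edgeR) in control and -3.52 ± 0.17 (adjusted p = 1.86e-09) in deficient cells. Zfp710 (chr7:80024814-80094173, plus strand) measured 93.1, 92.8, 90.4 and 91.9 CPM in control unstimulated and 26.8, 23.5 and 30.4 CPM in control stimulated libraries. In deficient cells it measured 90.6, 95.5 and 93.6 CPM before and 32.9, 30.1 and 27.7 CPM after stimulation. Zfp710 and Zfp395 have noncoding genes annotated on the opposite strand. The unstimulated libraries of both genotypes lay close together and well above all stimulated ones, with log2 changes of -1.78 ± 0.08 and -1.63 ± 0.08 (adjusted p = 3.61e-11 and 1.89e-10, edgeR).

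Other falls came from genes with and without the KRAB box. Without it, Zfp395, whose human ortholog was described as binding the promoter of the Huntington disease gene, fell from 88.6 ± 5.21 CPM (SD, n = 4) to 27.5 ± 4.06 CPM (n = 3) in control cells. Zfp821 fell from 27.7 ± 2.53 to 8.71 ± 0.953 CPM. Among KRAB members, Zfp69, a susceptibility gene for diabetes in obese mice, had a lower level, with a log2 change of -1.64, and the changes were -1.53 for Zfp40, -1.42 for Zfp101, -1.40 for Zfp53, -1.40 for Zfp61 and -1.39 for Zfp810. Zfp53 (chr17:21488998-21510473, plus strand) measured 27.3, 23.9, 26.9 and 27.0 CPM in control unstimulated and 7.57, 11.3 and 11.1 CPM in control stimulated libraries, with no overlap. The adjusted p of these 8 falls in control cells was between 1.87e-10 and 9.86e-05. In deficient cells the same genes changed by -1.87 (Zfp395), -1.49 (Zfp821), -1.72 (Zfp69), -1.16 (Zfp40), -1.34 (Zfp101), -1.32 (Zfp53), -0.85 (Zfp61) and -1.27 (Zfp810), and all passed the test. Zfp958, a KRAB member, and Zfp579 also stood among the 10 largest falls of deficient cells, at -1.20 ± 0.11 and -1.31 ± 0.17.

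Zfp783 and Zfp202 rose most. Zfp783 (chr6:47943171-47955913, plus strand) is annotated by GENCODE as a transcribed pseudogene and overlaps Zfp956 on the same strand, so reads of the shared exons cannot be assigned with certainty. Zfp783 measured 7.08, 5.96, 6.23 and 5.26 CPM in control unstimulated and 24.6, 24.7 and 19.8 CPM in control stimulated libraries, a log2 change of 1.91 ± 0.13 (adjusted p = 1.95e-09, edgeR). In deficient cells it went from 6.73, 7.98 and 7.75 CPM to 30.5, 25.3 and 32.3 CPM, a change of 1.97 ± 0.14. Its neighbour Zfp956 moved the other way, at -0.42 ± 0.09 in control cells. Zfp202 (chr9:40192316-40213604, plus strand), whose human ortholog represses genes of lipid metabolism, measured 8.11, 6.52, 5.56 and 5.66 CPM in control unstimulated and 22.3, 24.1 and 22.0 CPM in control stimulated libraries. In deficient libraries it measured 5.90, 6.20 and 4.76 CPM unstimulated and 18.8, 19.1 and 23.1 CPM stimulated. Its libraries separated fully by state, with log2 changes of 1.82 ± 0.14 and 1.85 ± 0.15 (adjusted p = 1.13e-08 and 3.52e-08, edgeR).

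Further rises included Zfp828, now named Champ1, which acts in attaching chromosomes to spindle microtubules and rose from 69.3 ± 3.96 to 148 ± 2.72 CPM in control cells (log2 1.09 ± 0.06). Zfp566, a KRAB member with other genes annotated on both strands of its locus, rose by a log2 of 1.33 ± 0.23. Zfp397, Zfp446 and Zfp639 rose by 0.81, 0.77 and 0.74. In deficient cells, Zfp259, now named Zpr1 and encoding a chaperone of the elongation factor eEF1A, rose by 0.71 ± 0.07, and Zfp192, now named Zkscan8, by 0.75 ± 0.10. All of these passed the test in both genotypes.

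**Figure D1:**
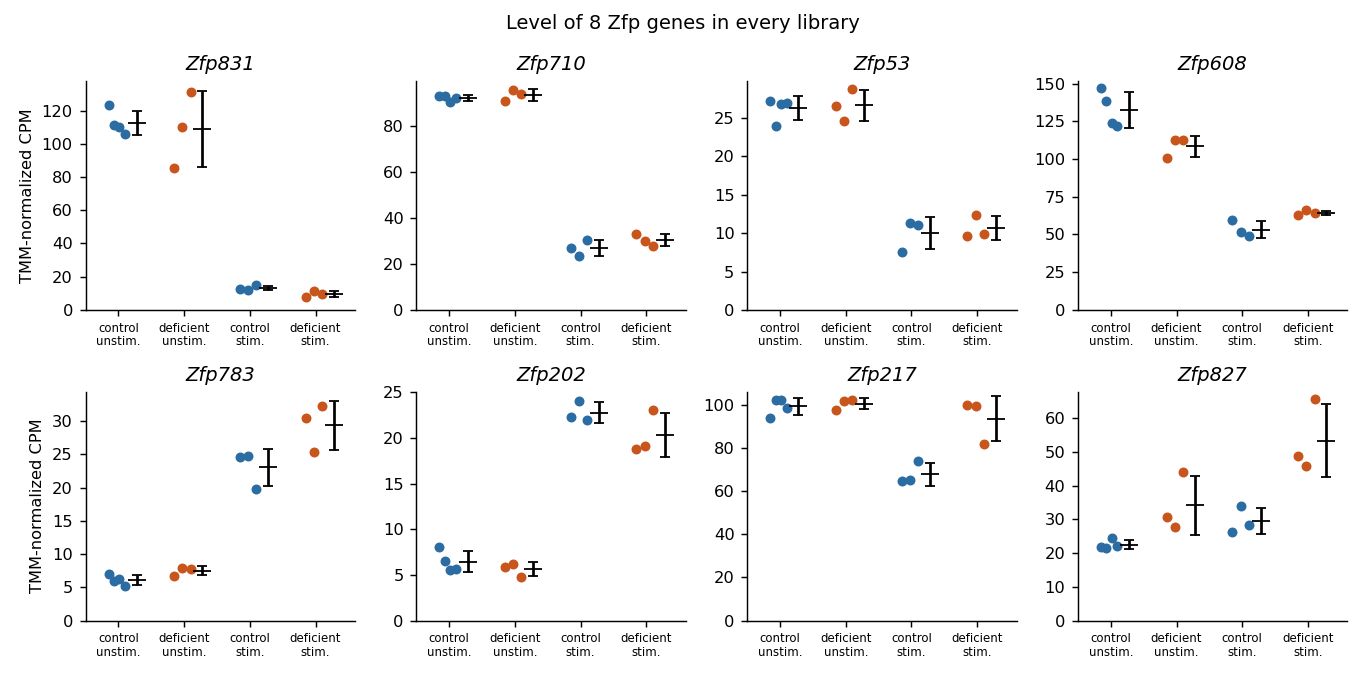
Level of 8 Zfp genes in each of the 13 libraries, in TMM-normalized CPM on a linear axis from 0. Points are libraries, blue for control and orange for deficient, and the bars beside them give mean and SD (n = 4, 3, 3 and 3). Stimulated libraries lie below unstimulated ones for Zfp831, Zfp710, Zfp53 and Zfp608 and above them for Zfp783 and Zfp202, while Zfp217 and Zfp827 separate the genotypes after stimulation.

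Members that act on RNA, ribosomes, ubiquitin or SUMO rose or did not pass the test. Of 11 genes listed, 10 were members. The list was written with earlier results of these data known. In control cells 7 rose, 0 fell and 3 were not called, and in deficient cells 6 rose, 0 fell and 4 were not called. Over all genes tested 28.5% rose and 31.8% fell in control cells, and 28.3% and 29.6% in deficient cells. The medians were 0.34 and 0.27, against -0.13 and -0.11 over all genes. At a mean log2 CPM of 6 to 10, 47.0% of all genes rose in control cells, with a median of 0.10.

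Zfp593, which encodes a factor of large ribosomal subunit assembly (known from its yeast homolog), measured 5.42, 7.66, 6.68 and 5.98 CPM in control unstimulated and 13.7, 19.5 and 16.3 CPM in control stimulated libraries. In deficient cells it measured 4.40, 6.71 and 6.34 CPM and 16.9, 17.9 and 17.5 CPM. Stimulated libraries were all above unstimulated ones, by a log2 of 1.36 ± 0.16 in control and 1.59 ± 0.18 in deficient cells (adjusted p = 1.81e-06 and 1.06e-06, edgeR). Zfp598, a ubiquitin ligase that marks collided ribosomes, rose from 99.4, 101, 102 and 90.3 CPM to 166, 182 and 174 CPM in control cells. The change was 0.83 ± 0.06 in control and 0.86 ± 0.06 in deficient cells. Zfp451, a SUMO ligase, rose by 0.73 ± 0.09 in control cells, and Zfp106 by 0.56 ± 0.07. Zfp106 measured 604, 615, 585 and 584 CPM unstimulated and 906, 894 and 849 CPM stimulated in control cells, the largest absolute gain among the members named. Zfp207, which acts in spindle assembly and splicing, rose by 0.38, and Zfp91, a ubiquitin ligase of the noncanonical NF-kB pathway, by 0.24. Zfp346, a protein that binds double-stranded RNA, rose by 0.29 ± 0.07 in control cells (adjusted p = 0.00272, edgeR) and was at 0.08 ± 0.08 in deficient cells (adjusted p = 0.4). Zfp622, Zfp326 and Zfp830 did not pass the test, with log2 values of 0.06, 0.21 and -0.03 in control cells.

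Transcription factor members moved in both directions. Of 19 listed, 16 were members: in control cells 4 rose, 8 fell and 4 were not called, and in deficient cells 4 rose, 6 fell and 6 were not called. The share that rose, 4 of 16, is near that of all genes (28.5% in control and 28.3% in deficient cells), and 31.8% and 29.6% of all genes fell. The medians were -0.21 and -0.02. The risers of both genotypes were Zfp281, which binds GC-rich promoters and represses Nanog in embryonic stem cells, Zfp219, Zfp131, and Zfp516, a factor of brown fat. Zfp219 overlaps genes on the opposite strand, and without control stimulated library 3 its adjusted p in control cells was 0.0520 in edgeR. Zfp281 rose by 0.69 ± 0.06 in control and 0.81 ± 0.06 in deficient cells. Zfp652, a repressor, had a lower level, with a log2 change of -1.01 in both genotypes, and reads at its locus are shared with genes annotated on both strands. Zfp292 changed by -0.82 in control cells, Zfp335, which is needed for T cell development, by -0.53, and Zfp644, a partner of the histone methyltransferases G9a and GLP, by -0.44. Zfp143, an activator that binds promoters, and the GC-box binding Zfp148 were at 0.04 and -0.08 in control cells, which did not pass. With the animal as a block Zfp148 passed, at -0.12 ± 0.05 (adjusted p = 0.0471, edgeR), and Zfp609, a factor linked to cohesin loading, passed in deficient cells at 0.20 ± 0.06 (adjusted p = 0.0109).

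Zfp318, which allows mature B cells to make IgD by preventing early termination of Ighm transcripts, was the member with the second most reads. It measured 269.7, 288, 269.5 and 251 CPM in control unstimulated and 226, 176 and 236 CPM in control stimulated libraries. It measured 226, 237 and 246 CPM in deficient unstimulated and 247, 222 and 252 CPM in deficient stimulated libraries. The control groups did not overlap, while the deficient groups did. The log2 change was -0.34 ± 0.09 in control cells (adjusted p = 0.00283, edgeR) and 0.03 ± 0.09 in deficient cells (adjusted p = 0.832), and the difference of these responses, 0.37 ± 0.13, had an unadjusted p of 0.0107 in edgeR and did not pass after adjustment.

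Listed KRAB members known for silencing imprinted genes or retroelements rose in control cells, against the direction of most KRAB members. The list was written with earlier results of these data known, so the shared direction is a description and does not support a pattern. Over all genes tested 28.5% rose in control cells, and 10.1% of KRAB members did. All 5 members of the 6 genes listed rose: Zfp445, which protects imprints, by 0.29 ± 0.06, Zfp568, a repressor of Igf2, by 0.50 ± 0.09, Zfp708 by 0.45 ± 0.15, Zfp809, which silences murine leukemia virus sequences, by 0.27 ± 0.08, and Zfp932 by 0.56 ± 0.08. In deficient cells Zfp445, Zfp568 and Zfp932 passed the test, where 28.3% of all genes rose. Zfp708 and Zfp809 were at 0.38 ± 0.16 and 0.11 ± 0.09 there, and Zfp708 passed with the animal as a block (0.37 ± 0.15, adjusted p = 0.0319, edgeR). Several of these calls were close to the threshold. In control cells the adjusted p in edgeR was 0.0523 for Zfp809 without stimulated library 1, and for Zfp708 it was 0.0519 without unstimulated library 2 and 0.0778 without stimulated library 3. That of Zfp445 in deficient cells was 0.220 with upper-quartile factors, and 0.149, 0.142 and 0.0974 without unstimulated library 1, stimulated library 2 or stimulated library 3. Zfp57, the other imprint gene listed, had 53 reads in all and was no member. Zfp932 shares near-identical coding sequence with Gm15446, and Zfp708 overlaps other genes on both strands, so their reads are uncertain.

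**Figure D2:**
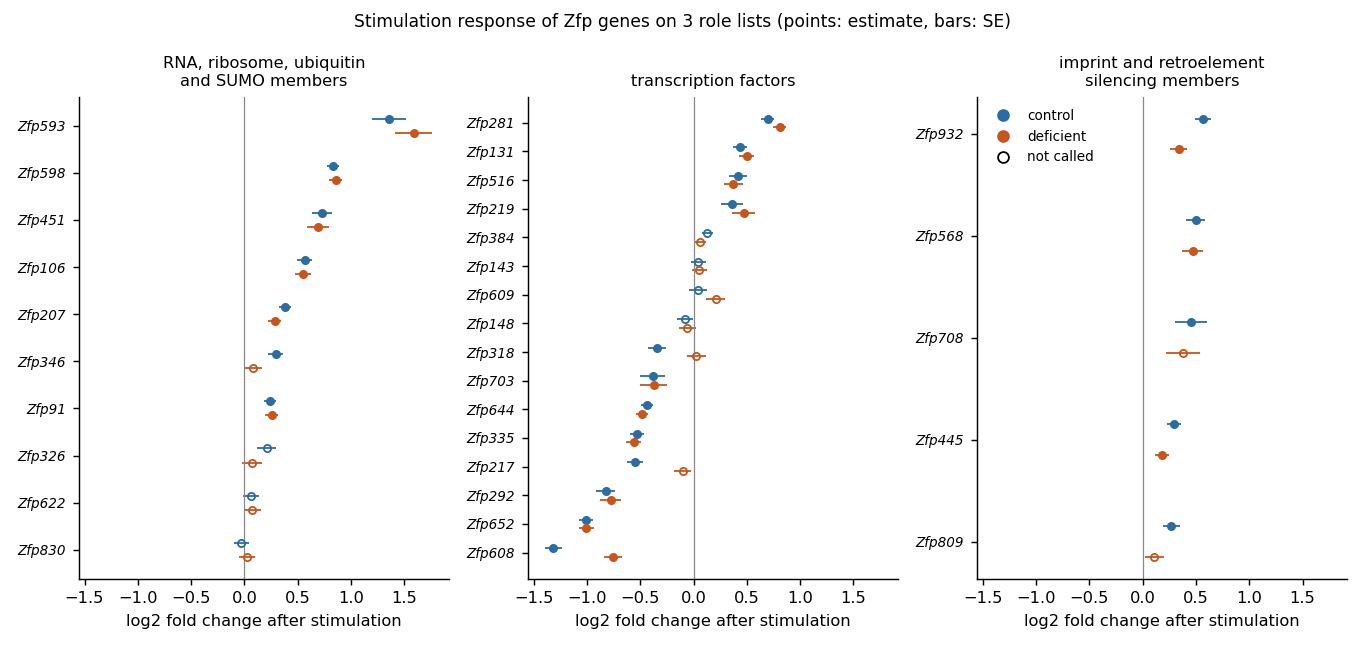
Log2 fold change after stimulation for members on 3 role lists, with SE as horizontal bars. Blue is control, orange is deficient, and open symbols did not pass the test. RNA, ribosome, ubiquitin and SUMO members lie between -0.03 (Zfp830) and 1.59 (Zfp593), the silencing members lie right of 0, and transcription factors spread from -1.32 (Zfp608) to 0.81 (Zfp281).

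Members were set side by side by whether they carry a KRAB A box. The box was found in the coded protein of 129 members and not in 115, and 2 members (Zfp783 and Zfp862) have no annotated coding sequence. Members without the box are those with no match of at most 3 mismatches, so a more divergent box would be missed. In control cells 83 KRAB members fell (64.3%) and 13 rose (10.1%), with a median of -0.48. Of members without the box 49 fell (42.6%) and 31 rose (27.0%), with a median of -0.05. Among all genes tested 31.8% fell and 28.5% rose, so the members without the box rose at a share near that. In deficient cells 74 KRAB members fell (57.4%) and 11 rose (8.53%), with a median of -0.42. Of members without the box 42 fell (36.5%) and 33 rose (28.7%), with a median of -0.06. Over all genes 29.6% fell and 28.3% rose in deficient cells. With DESeq2's size factors the medians in control cells were -0.41 and 0.02, so the sign of the second depends on the scaling. No test between the classes was made.

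KRAB members were also lower in level, with a median log2 CPM of 4.00 against 5.41, and over all genes the median change was lower in the lower ranges of level. Values were therefore set side by side within ranges of mean level. At a log2 CPM of 1.5 to 3 the median change in control cells was -0.81 for 24 KRAB members. It was -0.30 for 8 members without the box and -0.37 for all 1432 genes of that range. At 3 to 4.5 the median change in control cells was -0.52 for 64 KRAB members, -0.42 for 21 members without the box and -0.27 for all 2197 genes of that range. At 4.5 to 6 it was -0.33 for 32 KRAB members, 0.04 for 50 others and -0.02 for all 2852 genes. At 6 to 10 it was -0.04 for 9 KRAB members, 0.01 for 36 members without the box and 0.10 for all 3651 genes. At 1.5 to 3, 70.8% of KRAB members, 50% of members without the box and 35.4% of all genes fell. At 3 to 4.5 these shares were 65.6%, 66.7% and 43.6%, so the classes were alike there. At 4.5 to 6 they were 68.75%, 32% and 38.0%, and at 6 to 10 they were 22.2%, 41.7% and 34.2%. In the 3 lower ranges the KRAB median lay below that of all genes.

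Finger number varied with the KRAB box. KRAB members had a median of 12 C2H2 fingers and the others 7. Of 40 members with 0 to 4 fingers, 10 rose and 19 fell in control cells, with a median of -0.13. Of 49 members with 15 to 36 fingers, 3 rose and 31 fell, with a median of -0.40. Over all genes tested 28.5% rose and 31.8% fell in control cells. The 78 members with 5 to 9 and the 77 with 10 to 14 fingers had medians of -0.18 and -0.43. Since 36 of the 49 members with the most fingers and 5 of the 40 with the fewest carry the box, the features cannot be told apart here.

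**Figure D3:**
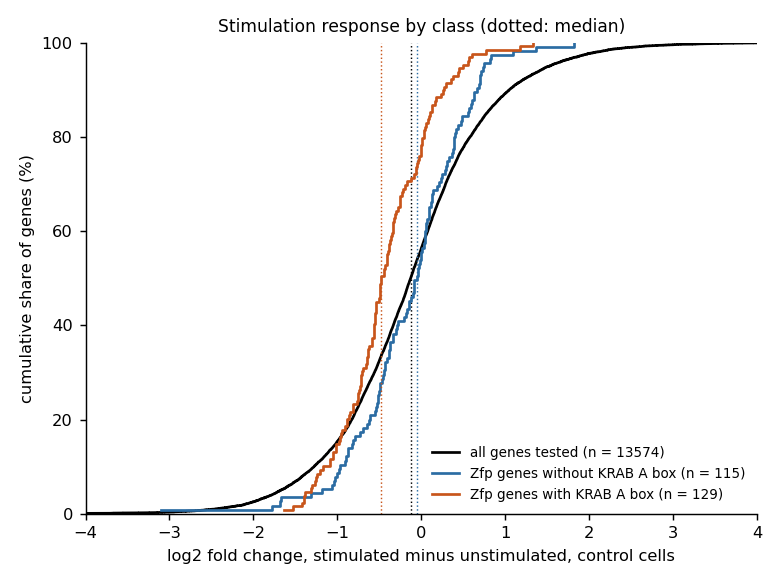
Cumulative share of genes in percent (vertical) at or below a given log2 fold change after stimulation of control cells (horizontal) for all genes tested, members without and members with a KRAB A box. Dotted lines mark the medians, which are -0.13, -0.05 and -0.48, and both member curves are steeper than that of all genes.

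Many members sit beside each other in the genome. With neighbours joined at gaps of at most 500 kb, 151 of 246 members lay in a chain of 2 or more and 93 lay in 10 chains of 5 or more. Chromosomes 7, 17 and 13 held 61, 30 and 23 members. The chain with the lowest median was on chromosome 17 (chr17:21008903-23564238, mm10), where 11 of 15 members fell in control cells, with a median of -0.89, and 11 fell in deficient cells, with a median of -0.73. Over all genes tested 31.8% fell in control and 29.6% in deficient cells. All 14 KRAB members of this chain had values below 0, from -0.22 for Zfp160 to -1.53 for Zfp40. Zfp213, the last of the chain, rose by 0.69 ± 0.12. It was the only member of the chain in which no box was found, at 4 mismatches where 3 were allowed. Near-identical genes can share reads. A coding sequence at least 95% identical over at least 50% of the length was found for 5 of the 246 members, and not for Zfp52. Zfp52, in this chain, was not called in control cells at -0.28 ± 0.12 (adjusted p = 0.0699, edgeR). It passed with the animal as a block (-0.26 ± 0.06, adjusted p = 0.000696), with upper-quartile factors (0.0305) and without control unstimulated library 2 (0.0333) or control stimulated library 3 (0.0355), in edgeR throughout.

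Other chains were mixed, where 31.8% of all genes fell and 28.5% rose in control cells. On chromosome 7 (chr7:29768552-30169750) 14 members ran from -1.30 for Zfp14 to 1.33 for Zfp566, with 3 higher and 7 lower in control cells. On chromosome 13 (chr13:67038596-67827002) 8 of 14 KRAB members fell and Zfp708 rose, with a median of -0.43. On chromosome 9, 3 adjacent KRAB genes moved apart: Zfp809 (chr9:22225714-22243354) and Zfp599 (chr9:22247430-22259895) rose by 0.27 and 1.17 in control cells, and Zfp810 (chr9:22276748-22307648) fell, at -1.39. On chromosome 6 (chr6:47835661-48623227) Zfp783 rose and 6 of 9 members fell. Of 10 chains, 9 had a median below that of all genes in control cells, the exception being 5 KRAB members on chromosome 8 (chr8:69209038-69791178) with a median of -0.03.

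**Figure D4:**
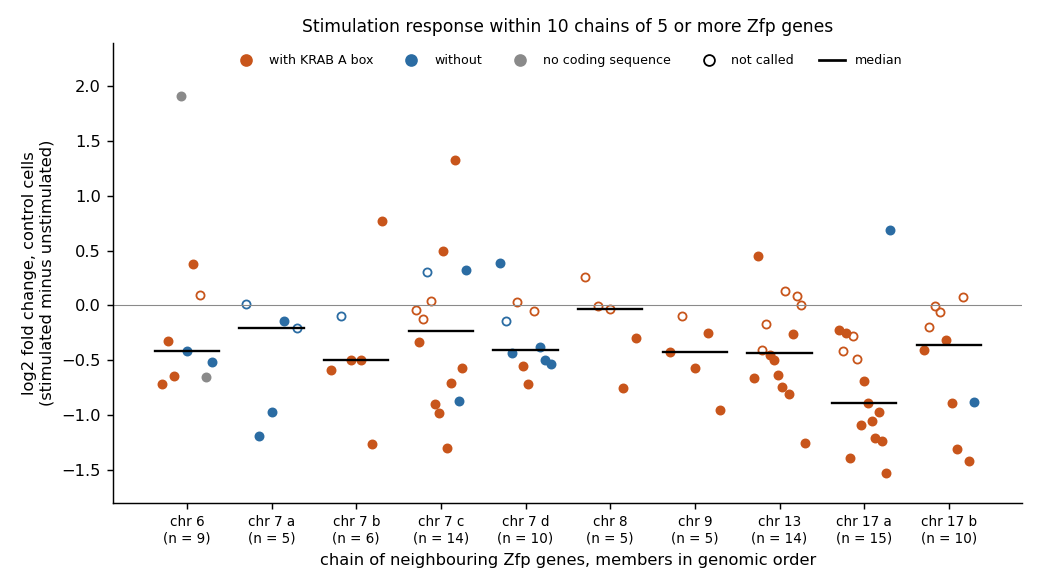
Log2 fold change after stimulation of control cells for the members of 10 chains of 5 or more neighbouring Zfp genes, in genomic order within each chain. Orange points carry a KRAB A box, blue do not, grey have no coding sequence, open symbols did not pass the test and black bars are medians. The first chromosome 17 chain lies lowest, at a median of -0.89, and single members stand above the rest of their chain on chromosomes 6 and 7.

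The responses of control and deficient cells come from separate libraries and could be set against each other. Of 246 members 231 had the same sign in both, 40 rose in both, 115 fell in both and 0 were called in opposite directions. Pearson's r across members was 0.968, and across all genes tested it was 0.901, as a description over genes that share libraries. Of the members called in control cells, 88.9% of those higher and 86.5% of those lower were also called in deficient cells, and of those called in deficient cells 88.9% of the higher and 98.3% of the lower were called in control cells. Over all genes tested the same shares were 90.9% and 84.8%, and 91.7% and 91.2%, and 90.5% had the same sign in both, against 93.9% of members. There were 23 members called in control cells alone (9.35%, against 7.38% of all genes) and 7 in deficient cells alone (2.85%, against 4.91%), and 61 in neither. A call in one genotype alone does not show a difference between them.

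**Figure D5:**
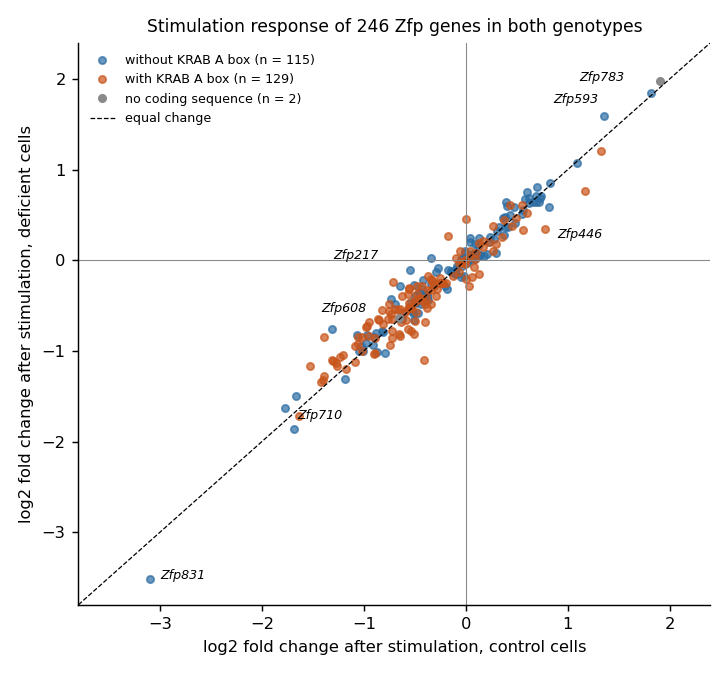
Log2 fold change after stimulation in control (horizontal) and deficient cells (vertical) for 246 members. Orange points carry a KRAB A box, blue do not, grey have no coding sequence, and the dashed line marks equal change. Points follow the line from Zfp831 to Zfp783, and Zfp608 and Zfp217 lie above it.

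The test of the difference itself called 0 members by edgeR, where 0.00737% of all genes were called. At an unadjusted p under 0.05 there were 9 members (3.66%), where 3.76% of all genes were counted, a share near the background. DESeq2 called 2, Zfp217 and Zfp608, where it called 0.36% of all genes. With the animal as a block, which pairs the states within each genotype, edgeR also called Zfp608 and Zfp217, where 0.501% of all genes were called. The difference in log2 response, deficient minus control, was then 0.60 ± 0.07 for Zfp608 (adjusted p = 0.000656, edgeR) and 0.45 ± 0.09 for Zfp217 (adjusted p = 0.0308).

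Zfp608, known in thymocytes for repressing the Rag genes, is encoded at chr18:54888048-54992555, minus strand and has noncoding RNAs annotated on the opposite strand. It measured 147, 139, 124 and 122 CPM in control unstimulated and 59.3, 51.6 and 49.0 CPM in control stimulated libraries. In deficient libraries it measured 100.4, 113 and 113 CPM unstimulated and 63.1, 65.9 and 64.1 CPM stimulated. It fell in both genotypes, with log2 changes of -1.32 ± 0.08 in control and -0.75 ± 0.08 in deficient cells (adjusted p = 8.65e-10 and 1.09e-06, edgeR). Deficient libraries lay below the control libraries before stimulation and above them after it, with differences of -0.29 ± 0.08 and 0.27 ± 0.08 that did not pass the test (adjusted p = 0.189 and 0.144, edgeR). Without the block the difference of responses was 0.56 ± 0.11 (adjusted p = 0.13, edgeR) and for Zfp217 0.45 ± 0.11 (0.297).

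Between genotypes, few Zfp genes differed. In unstimulated cells edgeR called 0 members, where 0.324% of all genes were called, and 23 (9.35%) had an unadjusted p under 0.05, where 8.63% of all genes did. DESeq2 called 3, with Zfp446 and Zfp827 higher and Zfp169 lower, where it called 1.61% of all genes. Zfp446 measured 8.26, 7.73, 6.68 and 6.83 CPM in the control libraries and 9.70, 9.24 and 10.6 CPM in the deficient ones, which did not overlap (log2 0.42 ± 0.11, adjusted p = 0.189 in edgeR). Zfp169, a KRAB gene, measured 44.9, 41.4, 38.1 and 43.5 CPM in the control libraries and 27.9, 35.7 and 35.3 CPM in the deficient ones, also without overlap (log2 -0.35 ± 0.09, adjusted p = 0.162 in edgeR). The median difference over members was -0.03 and over all genes -0.02.

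After stimulation 2 members were called by edgeR, both higher in deficient cells, where 2.01% of all genes were called. There were 30 members (12.2%) at an unadjusted p under 0.05, where 12% of all genes were counted. DESeq2 called 5, with Zfp62, Zfp719 and Zfp831 lower and the same 2 higher, where it called 3.87% of all genes. The median difference was -0.01 over members and 0.00 over all genes.

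Zfp217 (chr2:170108643-170148103, minus strand) encodes a transcriptional regulator that works with the CoREST corepressor complex and is an oncogene in human breast cancer. It measured 64.5, 65.1 and 73.9 CPM in control stimulated and 99.96, 99.2 and 81.6 CPM in deficient stimulated libraries, and every deficient library lay above every control library. In unstimulated cells it measured 93.9, 102, 102 and 98.5 CPM in the control libraries and 97.5, 102 and 102 CPM in the deficient ones, which overlapped. The stimulated difference was 0.47 ± 0.08 on the log2 scale (adjusted p = 0.00449, edgeR), and the unstimulated one 0.02 ± 0.07. Stimulation was followed by a fall in control cells (-0.55 ± 0.07) that was not called in deficient cells (-0.10 ± 0.08). With upper-quartile factors, under which the median of all genes was -0.20, the change in deficient cells was -0.19 and was called (adjusted p = 0.0470, edgeR).

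Zfp827 (chr8:79028437-79193766, plus strand), whose human ortholog recruits the NuRD complex to telomeres, measured 26.2, 33.8 and 28.4 CPM in control stimulated and 48.7, 45.7 and 65.6 CPM in deficient stimulated libraries. Before stimulation it measured 21.8, 21.5, 24.4 and 22.0 CPM in the control libraries and 30.6, 27.7 and 44.1 CPM in the deficient ones. Deficient libraries lay above control libraries in both states, and deficient animal 3 was highest in each. The differences were 0.86 ± 0.17 stimulated (adjusted p = 0.0252, edgeR) and 0.60 ± 0.16 unstimulated (adjusted p = 0.23). The stimulated call was lost without control stimulated library 1 or 3 (adjusted p = 0.118 and 0.0998), without deficient stimulated library 3 (0.0642), without both libraries of deficient animal 1 (0.0572) and with only the groups compared (0.0530), all in edgeR. Stimulation raised it in deficient cells (0.65 ± 0.17, adjusted p = 0.00613 in edgeR, and 0.0502 with only the groups compared). In control cells the change was 0.39 ± 0.16 (adjusted p = 0.0533, edgeR) and passed with the animal as a block (adjusted p = 0.00076).

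Related families give a frame for these counts. They were taken by symbol, so family genes still listed under an older Zfp symbol count among the members instead. Examples are Zfp238 (now Zbtb18) and Zfp192 (now Zkscan8). Of 34 Zbtb genes, which pair fingers with a BTB domain, 10 rose and 11 fell in control cells (29.4% and 32.4%, where 28.5% and 31.8% of all genes did), with a median of 0.10. In deficient cells 9 rose and 9 fell, with a median of -0.04. Between genotypes after stimulation 3 of them, Zbtb2, Zbtb10 and Zbtb46, were lower in deficient cells, where 2.01% of all genes were called in either direction. Of 13 Zscan and Zkscan genes, which pair fingers with a SCAN domain, 1 rose and 8 fell, with a median of -0.34. Of 23 tested genes for the KRAB corepressor and heterochromatin machinery, 10 rose and 7 fell. Trim28, the corepressor that KRAB domains bind, rose from a mean of 316 to 455 CPM in control cells (log2 0.52 ± 0.06), and Setdb1 rose by 0.55 ± 0.06. Atf7ip, the partner of SETDB1, had a lower level, with a log2 change of -1.07 ± 0.07 (adjusted p = 3.65e-09, edgeR).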

How the data were processed

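RNA of mouse splenic B cells was sequenced in 13 libraries. The raw counts per gene symbol were deposited by the authors, who used TopHat, HTSeq and DESeq2 with the mm10 build per the submitters' processing notes. Versions, annotation, strand setting and handling of multiply mapped reads are not given in the sources used here, so overlapping or near-identical genes can share reads. The log2 values deposited by the authors are scaled between libraries by a transformation that is not stated, and were used with limma as an alternative.

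Of 23337 symbols, 1 with a missing cell was left out. Counts were tested with edgeR 4.0.16 (R 4.3.3; filterByExpr with a minimum count of 10, TMM factors, quasi-likelihood F-test over all 4 groups with 9 residual degrees of freedom, no covariate), and p-values were adjusted over all 13574 genes tested by Benjamini and Hochberg, with 0.05 as threshold. limma 3.58.1, DESeq2 1.42.0, other scaling factors and filters, sex as a term, the replicate block and left-out libraries were alternatives. The members, the role lists and the motifs were chosen with earlier results of these data known. Members named were the 10 largest rises and falls of each stimulation contrast among called genes whose groups did not overlap, all members called between genotypes, the 5 highest per kilobase, the role lists and the genes beside the threshold. Others, such as Zfp169, Zfp446, Zfp608 in the genotype contrasts and the chain members, were named after their values were seen.

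Libraries with the same number were compared over 8656 genes: deviations from group means correlated at 0.558 to 0.803 between states of one genotype, so the number was taken to pair them there, and at -0.563 to -0.0603 between genotypes, so it was not taken to pair those. Replicate libraries differed beyond counting noise. Fingers and KRAB A boxes (at most 3 mismatches in 10 places) were searched in the longest coding sequence of GENCODE vM21, compared with BLAST+ 2.17.0, and promoters are from RefSeq, GRCm38.p6.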

Additional observations from a re-analysis of the deposited data

Results flagged for a closer look

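A single library stood apart from the other control unstimulated libraries in 6 of 59 named members, where chance gives about 1 in 20 for a gene taken alone. The members share the same 4 libraries, so the flags are not independent and their number cannot be judged against that rate. Library 1 held the highest value, set apart relative to the small spread of the others, for Zfp869 (91.8 CPM), Zfp809 (45.7 CPM) and Zfp346 (33.3 CPM). It was the only library of this group marked as male, and the part of sex in these values was not tested. Library 3 was highest for Zfp827 at 24.4 CPM and lowest for Zfp69 at 10.3 CPM. Library 2 was lowest for Zfp53 at 23.9 CPM.

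The stimulation response differed between genotypes, with the replicate block, for Zfp608 by 0.60 and for Zfp217 by 0.45 on the log2 scale, deficient minus control. The fall after stimulation was smaller in deficient cells for both. They were called by DESeq2 as well and were not called by edgeR without the block.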

How the results depend on the processing

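The numbers of members called after stimulation stayed within 1.5 times of 178 in control and 162 in deficient cells. With a lower count minimum for members they were 189 and 170, and with a higher one 157 and 143. With the minimum kept, the other settings gave 170 to 184 and 149 to 182. Leaving out 1 library gave 165 to 174 and 151 to 163. The genotype contrasts rest on few calls. In unstimulated cells, 0 members became 2 with sex as a term (Zfp169 and Zfp608, both lower) and 3 with DESeq2, and stayed at 0 without any 1 library. In stimulated cells, 2 members became 5 with sex as a term, 5 with DESeq2, 1 with only the groups compared and 1 without both libraries of deficient animal 1, and 1 to 3 without any 1 library. For the difference of responses, 0 became 1 with sex as a term (Zfp608), 2 with DESeq2 and 2 with the replicate block, and stayed at 0 without any 1 library. Over all 13574 genes tested, sex as a term raised the calls from 44 to 198 in unstimulated and from 273 to 511 in stimulated cells. For the difference of responses it raised them from 1 to 19. DESeq2 called 1.61%, 3.87% and 0.36% of all genes in these contrasts, and the replicate block 0.501% for the difference. With only the groups compared, 208 of 12573 genes were called in stimulated cells. With the replicate block 184 and 179 members were called after stimulation, where 8855 and 8900 of all genes were. The causes were not tested. Of the named values, 0 changed direction. Calls lost and gained were counted per value and setting, so the same value can count several times. Under other settings there were 7 losses and 49 gains of a call, and with 1 library left out 21 losses and 17 gains. Those lost and not given above were Zfp703 in both genotypes, Zfp772 in control cells, and Zfp446 and Zfp599 in deficient cells (adjusted p of 0.0523 to 0.113, edgeR). Limits are 3 or 4 libraries per group, levels near 2.44 CPM for the lowest members, no stated strand setting, and sex unbalanced between genotypes.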
